A study of Mus musculus with 6 samples.

Results

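The Notch pathway carries signals between neighbouring cells. A ligand of the Delta or Jagged type on one cell engages a Notch receptor on the next, fringe enzymes modify the receptor's sugars and so tune which ligand it answers, and the cleaved receptor enters the nucleus and joins the DNA-binding protein RBPJ to switch on repressor genes of the Hes and Hey families. In neural tissue this circuit keeps progenitors from becoming neurons, and in presomitic mesoderm, the tissue that later forms the somites, it takes part in the oscillating segmentation clock. Described here are 10 genes of the pathway, taken by name: the ligand genes Dll1, Dll3 and Jag1, the receptor genes Notch1, Notch2 and Notch3, the fringe gene Lfng, and the target genes Hes1, Hes5 and Hey1. They were found as all non-control probes whose RefSeq identifier belongs to one of these symbols, which gave 14 probes for 10 genes among 18749 genes named on the array.

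The tested cells were mouse 129/Ola embryonic stem cells differentiated to day 3 in N2B27, a serum-free medium, and given trichostatin A (TSA), which blocks histone deacetylases, for 24 h. The control cells were the same line at day 3 with the solvent DMSO for 24 h in place of TSA. No label states the TSA dose. Each treatment had 3 samples from independent experiments, each hybridised to a single-colour Agilent array, and each of 3 slides held a TSA sample at array position 4 and a DMSO sample at position 3, which leaves array position and treatment as factors that cannot be told apart. The samples were whole cultures, not sorted cells, so more cells of a type and more RNA per cell cannot be told apart either.

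Levels are log2 of the processed signal minus the array's 75th percentile, so a level of 0 is the brightness that 25% of spots exceed, and a difference is TSA minus DMSO on that log2 scale. The 75th percentile itself was 670.4, 310.6 and 885.4 intensity units on TSA arrays 1, 2 and 3, against 632.1, 654.1 and 926.3 on DMSO arrays 1, 2 and 3. TSA array 2 was thus the dimmest, and its levels correlated at 0.931 and 0.939 with the other TSA arrays, while all other array pairs of the same treatment reached 0.984 to 0.99. Relative to the 75th percentile, the added control RNAs were 1.41 higher on the TSA array than on the DMSO array of slide 2, against 0.04 on slide 1 and 0.16 on slide 3, and all tested genes had a median difference of 0.30 on slide 2, against -0.03 on slide 1 and 0.03 on slide 3. Every difference on slide 2 below stands beside that shift, and its part in them was not tested. With 3 arrays per treatment, that number sets the precision.

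No member of the group passed the test for TSA against DMSO. All 10 genes were well above background on all 6 arrays by the probe that was read, and 0 of 10 passed at an adjusted p of 0.05 (limma, Benjamini-Hochberg over 28158 probes, 3 arrays per treatment), where 1.41% of 14526 tested genes did (1.36% higher and 0.0551% lower in TSA). With the slide as a block the count was also 0 of 10, where 3.34% of genes passed. At an unadjusted p under 0.05, 1 of 10 lay below the limit without the block, where 14.9% of genes did, and 3 of 10 with it, where 22.9% did. The fit without the block had adjusted p-values of 0.400 to 0.807 for the 10 genes, and the fit with it 0.100 to 0.529. The levels nonetheless show an arrangement of higher and lower means that can be followed gene by gene.

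**Figure D1:**
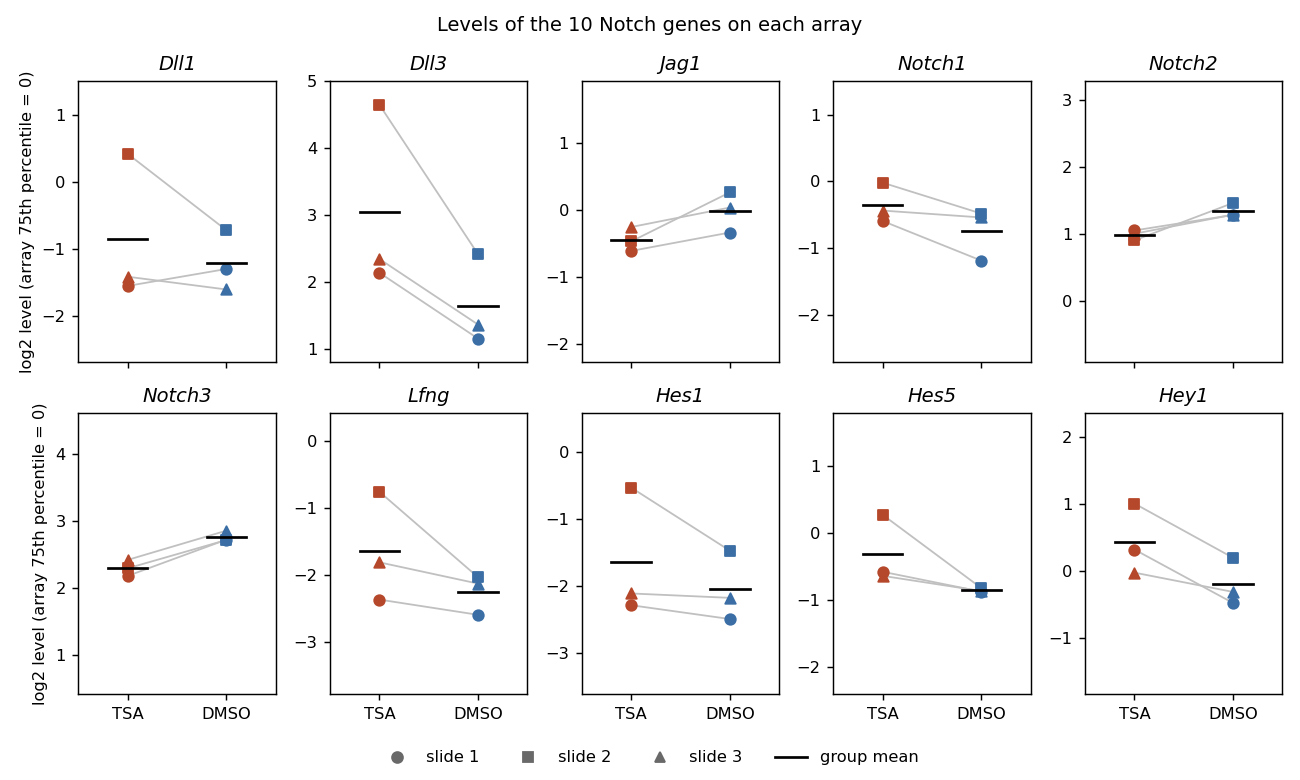
Each panel shows the log2 level of a gene (75th percentile of the array = 0) on the 3 TSA and the 3 DMSO arrays, with a grey line joining the arrays of the same slide and a black bar at the group mean; each panel spans the same height. Notch2 and Notch3 lie lower on every TSA array than on any DMSO array, Hes5 lies higher, and the square of slide 2 stands above the other TSA arrays for Dll1, Dll3, Notch1, Lfng, Hes1, Hes5 and Hey1.

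Among the ligands, Dll3 had the largest difference of the 10 genes. Dll3 encodes a divergent Delta-family ligand that acts mostly inside the cell and is needed for orderly somite formation in mice. Its level was 2.14, 4.65 and 2.35 on TSA arrays 1, 2 and 3, against 1.16, 2.42 and 1.37 on DMSO arrays 1, 2 and 3. TSA was higher on every slide, but DMSO array 2 lay above TSA arrays 1 and 3, so the groups overlap. The means were 3.04 ± 1.39 in TSA and 1.65 ± 0.67 in DMSO (SD, n = 3 each), a difference of 1.40 ± 0.72 (standard error, 2.64-fold, 95% interval -0.31 to 3.11, limma adjusted p = 0.524). In the fit with slides as blocks the standard error was 0.31, the interval 0.59 to 2.21 and the adjusted p 0.100. On slides 1, 2 and 3 the gene differed by 0.98, 2.23 and 0.98, so the first and the third experiment gave nearly the same value and the second a larger one. Without TSA replicate 2 alone the difference was 0.60 (adjusted p = 0.496). With both arrays of slide 2 left out it was 0.98 ± 0.17 (adjusted p = 0.0872), and with the remaining slides as blocks Dll3 passed (adjusted p = 0.0219), in a fit with few degrees of freedom that called 13.5% of all tested genes.

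Dll1, the main Delta ligand of neural progenitors and presomitic mesoderm, had no steady direction. Its level was -1.55, 0.42 and -1.42 on TSA arrays 1, 2 and 3, against -1.30, -0.72 and -1.61 on DMSO arrays 1, 2 and 3. A single array, that of TSA on slide 2, stands above the other five, which overlap. The difference was 0.36 ± 0.56 (95% interval -0.98 to 1.70, adjusted p = 0.807), and on the slides it was -0.25, 1.14 and 0.19. Without TSA replicate 2 it was -0.27, and without both arrays of slide 2 it was -0.031. The array carries 10 spots of the Dll1 probe, whose log2 signals had an SD of 0.05 to 0.09 within an array, so the spread between arrays is much wider than the spread between spots. In raw brightness, before scaling, the spots of TSA array 2 ran from 388 to 448 intensity units and those of DMSO array 2 from 366 to 431, so these ranges overlap and the difference of 1.14 in level appears after scaling to the 75th percentile. For Dll3 the raw brightness was 7791 on TSA array 2 and 3489 on DMSO array 2, so its difference on slide 2 has the same direction before scaling. Lfng, with 184 on TSA array 2 and 160 on DMSO array 2, also kept its direction. Hes1 (215 on TSA array 2 and 235 on DMSO array 2), Hey1 (624 on TSA array 2 and 749 on DMSO array 2) and Notch1 (307 on TSA array 2 and 469 on DMSO array 2) were dimmer on the TSA array before scaling and higher after it.

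Jag1, the Jagged ligand, ran the other way. Its brighter probe had levels of -0.62, -0.48 and -0.26 on TSA arrays 1, 2 and 3, against -0.34, 0.26 and 0.03 on DMSO arrays 1, 2 and 3. TSA was lower on every slide, with an overlap through DMSO array 1, which lay below TSA array 3. The difference was -0.43 ± 0.24 (adjusted p = 0.555), made of -0.27, -0.73 and -0.29 on the slides. A second, much dimmer probe of the gene gave -0.22 ± 0.26 (adjusted p = 0.750), but it was well above background on only 1 of 3 TSA arrays, against 3 of 3 DMSO arrays.

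The receptors Notch2 and Notch3 were lower in TSA with little scatter, while Notch1 was not. All 3 encode membrane receptors that are cut in response to ligand. Notch3 had levels of 2.18, 2.30 and 2.42 on TSA arrays 1, 2 and 3, against 2.73, 2.72 and 2.86 on DMSO arrays 1, 2 and 3, so the groups do not overlap. The means were 2.30 ± 0.12 in TSA and 2.77 ± 0.08 in DMSO (SD, n = 3 each), and the difference was -0.47 ± 0.19 (1.38-fold higher in DMSO, 95% interval -0.92 to -0.02, adjusted p = 0.400, or 0.238 in the blocked fit). On slides 1, 2 and 3 it was -0.54, -0.42 and -0.44, the closest agreement between experiments among the 10 genes in proportion to the size of the difference. Notch3 is also the 1 member below an unadjusted limma p of 0.05 without the block. With the block, the 3 members below it were Dll3 (unadjusted p = 0.0066), Hey1 (0.026) and Notch3 (0.043).

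Notch2 gave a similar picture from its brightest probe. Levels were 1.06, 0.91 and 1.01 on TSA arrays 1, 2 and 3, against 1.29, 1.47 and 1.29 on DMSO arrays 1, 2 and 3, again with no overlap. The difference was -0.36 ± 0.19 (95% interval -0.80 to 0.09, adjusted p = 0.533), and on the slides it was -0.23, -0.56 and -0.28. The gene has 3 tested probes and they do not all point one way. A second probe gave -0.23 ± 0.18 and was lower on every slide, and the dimmest gave 0.17 ± 0.22 and was higher on every slide (adjusted p = 0.663 and 0.769). Notch1 had levels of -0.59, -0.02 and -0.43 on TSA arrays 1, 2 and 3, against -1.18, -0.48 and -0.54 on DMSO arrays 1, 2 and 3. It was higher in TSA on every slide, by 0.59, 0.46 and 0.10, with overlapping groups and a difference of 0.39 ± 0.28 (95% interval -0.29 to 1.06, adjusted p = 0.642). Without TSA replicate 2 it was 0.22. On slide 3 the sign of Notch1 turned with normexp correction (-0.03) and in the authors' deposited table (-0.04).

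Lfng is the fringe gene whose product modifies Notch receptors and which oscillates in presomitic mesoderm. Its highest level was on TSA array 2, as for Dll1, Dll3, Notch1, Hes1, Hes5 and Hey1. Its brighter probe had levels of -2.36, -0.75 and -1.81 on TSA arrays 1, 2 and 3, against -2.59, -2.03 and -2.13 on DMSO arrays 1, 2 and 3. The groups overlap, since DMSO arrays 2 and 3 lay above TSA array 1. The difference was 0.61 ± 0.43 (95% interval -0.42 to 1.63, adjusted p = 0.631), with 0.23, 1.28 and 0.32 on the slides. On slide 1 this probe did not keep its direction, at 0.012 with median centring, 0 with normexp correction and -0.019 in the authors' deposited table. A second, dimmer probe gave 0.29 ± 0.60 (adjusted p = 0.856) and did not keep its direction, with -1.28, 1.90 and 0.26 on slides 1, 2 and 3. Without slide 2 the brighter probe differed by 0.27 ± 0.27, and without TSA replicate 2 alone by 0.16.

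**Figure D2:**
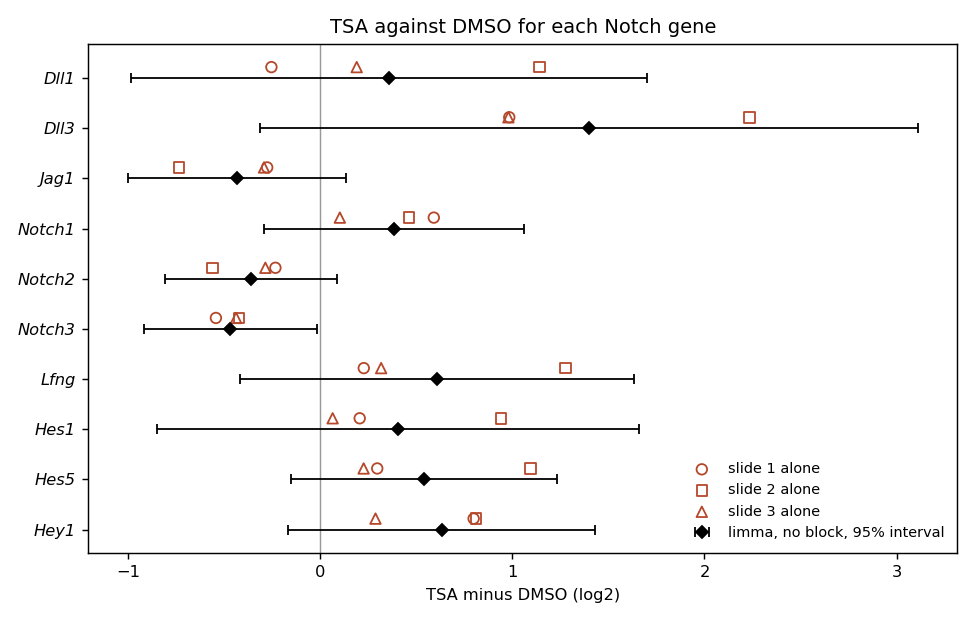
For each gene the black diamond and bar give the TSA minus DMSO difference on the log2 scale with its 95% interval from limma without the block (3 arrays per treatment), and the open marks give the difference on each slide. Dll3 has the largest difference, 1.40, and Notch3, at -0.47, has the interval that ends just below 0; slide 2 gives the mark farthest from 0 for 8 of the 10 genes, all but Notch1 and Notch3, with Hey1 nearly equal on slides 1 and 2.

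The target genes Hes1, Hes5 and Hey1 encode repressors of the basic helix-loop-helix class, and Hes5 in neural progenitors is a common readout of Notch activity. Hes5 had levels of -0.58, 0.27 and -0.64 on TSA arrays 1, 2 and 3, against -0.88, -0.83 and -0.87 on DMSO arrays 1, 2 and 3. The DMSO arrays were nearly equal, the TSA arrays all lay above them, and TSA array 2 stood furthest out. The means were -0.32 ± 0.51 in TSA and -0.86 ± 0.03 in DMSO (SD, n = 3 each), with a difference of 0.54 ± 0.29 (1.45-fold, 95% interval -0.15 to 1.23, adjusted p = 0.546) made of 0.30, 1.09 and 0.23 on the slides. Without TSA replicate 2 the difference was 0.25, and without both arrays of slide 2 it was 0.26. In raw brightness Hes5 had 374 intensity units on TSA array 2 and 369 on DMSO array 2.

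Hey1 had levels of 0.32, 1.01 and -0.03 on TSA arrays 1, 2 and 3, against -0.48, 0.20 and -0.31 on DMSO arrays 1, 2 and 3. It was higher in TSA on every slide, by 0.80, 0.81 and 0.29, and the groups overlap through DMSO array 2. The difference was 0.63 ± 0.33 (1.55-fold, 95% interval -0.17 to 1.43, adjusted p = 0.540). In the blocked fit its interval was 0.11 to 1.15 and the adjusted p 0.192. For Hey1 the first and second experiments gave nearly the same difference. Without TSA replicate 2 it was 0.35.

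Hes1, which oscillates in many cell types and responds to other signals besides Notch, had levels of -2.29, -0.53 and -2.11 on TSA arrays 1, 2 and 3, against -2.50, -1.47 and -2.18 on DMSO arrays 1, 2 and 3. Slide 2 was higher than the other slides in both treatments. The difference was 0.40 ± 0.52 (95% interval -0.85 to 1.66, adjusted p = 0.770), with 0.21, 0.94 and 0.07 on the slides. The small differences on slides 1 and 3 did not keep their sign. Hes1 was at -0.01 and -0.04 there with median centring and at -0.11 and -0.03 in the authors' deposited table, and without TSA replicate 2 its overall difference was -0.15.

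Counting over the group, 7 of 10 genes had a higher mean in TSA, where 58.1% of all tested genes did. The groups did not overlap for 3 of 10 (Hes5 higher, Notch2 and Notch3 lower), where 24.7% of genes were free of overlap (16.4% higher and 8.29% lower). The direction was the same on all slides for 9 of 10, where 54.1% of genes had that, the exception being Dll1. Of these, 6 were higher on every slide (32.6% of genes) and 3 lower (21.5%). Under each of 5 scalings of the arrays (75th percentile, median, quantile, normexp with quantile, and the authors' deposited table) it was the same for 6 of 10, where 38.4% of genes had that. These 6 were Dll3, Hes5 and Hey1, higher in TSA, and Jag1, Notch2 and Notch3, lower. The median difference of the 10 genes was 0.40, against 0.08 over all tested genes, and without slide 2 it was 0.20, against -0.0031 over all. Without TSA replicate 2 alone, which keeps the DMSO sample of its experiment, the median of the 10 was 0.0059, against -0.025 over all.

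The sequences just before the start sites of the members were read for the core of the RBPJ binding motif, since Hes genes are known direct targets of the Notch and RBPJ complex. RefSeq promoter windows (build GRCm38.p6) were found for 8 of 10 members, with 9 start sites because Dll1 has 2 entries; Hes1 and Hey1 had no entry. The search was for TGGGAA on both strands in the 250 bases before the start. It matched in 2 of 8 members, Hes5 and Lfng, each with 2 copies, while 21.6% of the 32851 windows in the table hold at least 1 copy and 2.77% hold 2 or more. Shown first are these 2 windows, then those of Dll3 and Notch3, which had the largest higher difference and the lowest adjusted p among the members that were lower; capitals mark TGGGAA or its reverse complement TTCCCA, and each sequence runs 5′ to 3′ on the gene's strand.
Hes5 (chr4:154960673-154960922, plus strand): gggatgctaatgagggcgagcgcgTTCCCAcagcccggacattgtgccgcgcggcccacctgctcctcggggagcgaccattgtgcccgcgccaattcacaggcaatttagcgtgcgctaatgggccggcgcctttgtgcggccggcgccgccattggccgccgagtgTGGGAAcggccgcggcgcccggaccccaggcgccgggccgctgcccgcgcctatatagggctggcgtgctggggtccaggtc
Lfng (chr5:140607091-140607340, plus strand): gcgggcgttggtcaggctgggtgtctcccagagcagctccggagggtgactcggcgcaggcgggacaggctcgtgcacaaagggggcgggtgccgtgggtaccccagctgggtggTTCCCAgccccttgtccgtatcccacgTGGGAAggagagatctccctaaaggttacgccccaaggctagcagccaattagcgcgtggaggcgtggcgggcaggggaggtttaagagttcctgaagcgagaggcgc
Dll3 (chr7:28301786-28302035, minus strand): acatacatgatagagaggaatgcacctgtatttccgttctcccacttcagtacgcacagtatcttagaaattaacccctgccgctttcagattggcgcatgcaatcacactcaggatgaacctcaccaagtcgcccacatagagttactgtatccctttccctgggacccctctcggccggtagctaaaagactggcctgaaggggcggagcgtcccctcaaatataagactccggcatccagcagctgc
Notch3 (chr17:32166891-32167140, minus strand): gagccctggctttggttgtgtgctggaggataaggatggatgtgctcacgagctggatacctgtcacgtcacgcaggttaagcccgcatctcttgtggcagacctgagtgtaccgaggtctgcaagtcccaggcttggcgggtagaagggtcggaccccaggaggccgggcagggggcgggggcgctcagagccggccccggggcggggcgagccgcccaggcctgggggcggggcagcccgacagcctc

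In Hes5 the copies begin 226 and 82 bases before the start, and in Lfng 135 and 108 bases before it. In both genes the farther copy reads as TTCCCA and the nearer as TGGGAA, so the pair faces in opposite directions. A match describes these letters only, and neither binding nor chromatin was measured here. The 9 windows had a GC content of 52.0% to 72.0%, against a median of 52.4% over all windows, and 10 to 34 CG dinucleotides, against a median of 6, so all 9 lay above that median. The windows of Dll3, with 10 CG dinucleotides, and of Notch2, with 34, stood at the ends of that range.

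The second experiment had higher levels for most members, without a call. Slide 2 was set against the mean of slides 1 and 3 in a fit with treatment as a term, and 9 of 10 members had a higher mean on slide 2, as did 9336 of 14526 tested genes. The median excess was 0.59 over the members, against 0.21 over all tested genes. With 0 of 10 past the threshold (limma, adjusted p of 0.148 to 0.928), and 0.0% of all tested genes past it, the contrast made no call. At an unadjusted p under 0.05 there were 5 of 10 members, where 28.8% of genes had that. These were Dll1, Dll3, Lfng, Hes1 and Hey1. Dll3 was 1.78 ± 0.33 higher on slide 2, Dll1 1.32 ± 0.33, Hes1 1.27 ± 0.26, Lfng 0.83 ± 0.29 and Hey1 0.73 ± 0.22. Notch2 at 0.03 ± 0.19 and Notch3 at -0.04 ± 0.18 were level between the experiments within these errors.

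Within TSA, array 2 exceeded the mean of the other TSA arrays by 2.41 for Dll3, 1.90 for Dll1, 1.67 for Hes1, 1.33 for Lfng, 0.88 for Hes5, 0.86 for Hey1 and 0.49 for Notch1, against a median of 0.37 over all tested genes. Within DMSO, array 2 exceeded the other DMSO arrays by 1.15 for Dll3, 0.73 for Dll1, 0.86 for Hes1, 0.33 for Lfng, 0.05 for Hes5, 0.59 for Hey1 and 0.38 for Notch1, against a median of 0.06. For Hes5 the excess on slide 2 lay in TSA, while Dll3 and Hes1 exceeded the other arrays in both treatments; the difference between treatments was not tested. Slide and experiment carry the same number and cannot be told apart.

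**Figure D3:**
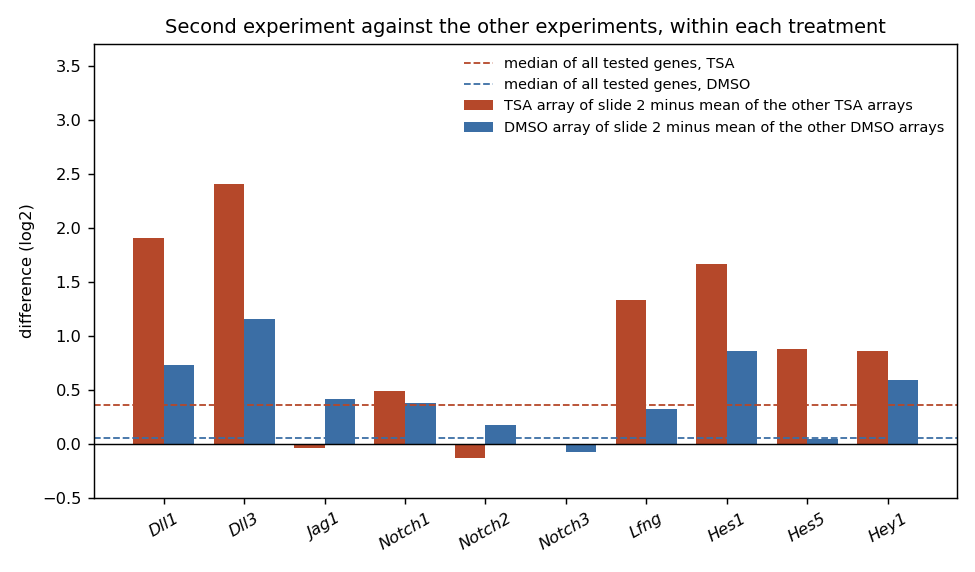
Bars give, for each gene, the log2 level on the slide 2 array minus the average of the same treatment's other arrays, with TSA left of DMSO, and dashed lines give the median of that difference over all tested genes. Dll3, Dll1, Hes1, Lfng, Hey1 and Notch1 stand above the dashed line of their treatment in both bars, and Notch2 and Notch3 lie near 0.

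The members with the widest spread over the 6 arrays were Dll3 (SD 1.24), Dll1 (0.78) and Hes1 (0.73). Their levels over the 6 arrays were compared with those of 14516 genes, and clone and predicted gene symbols were passed over in naming the closest. Among the rest, the levels most like those of Dll3 were those of Slc25a14, Borcs5 and Mtarc2 (Pearson r of 0.998, 0.998 and 0.997). Those most like Dll1 were Grin2d, Dvl2 and Syn1 (r of 0.999 each), and those most like Hes1 were Dhrs1, Prrc1 and Atoh7 (r of 0.998, 0.998 and 0.997). Each of these 9 genes was higher on slide 2, by 0.53 to 1.75, which follows largely from picking them for likeness to members that were higher there. With 6 arrays and this many genes such values are a description.

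No other gene of the pathway passed without the block, and 1 passed with it. Of 45 other Notch pathway genes, 37 were tested, 4 had no named probe and 4 were not above background often enough. Of the 37, 0 passed without the block, where 1.41% of all tested genes did. At an unadjusted p under 0.05 (limma) there were 6, where 14.9% of all tested genes had that. With array weights and no block the count that passed was 1. With the block 1 passed, where 3.34% of all tested genes did. The gene that passed with the block was Dner, for a neuronal membrane protein with Delta-like repeats. Its levels were -1.80, -1.37 and -1.55 on TSA arrays 1, 2 and 3, against -3.81, -2.78 and -2.92 on DMSO arrays 1, 2 and 3. Its groups do not overlap and its difference was 1.60 ± 0.32 (adjusted p = 0.0871 without the block and 0.0432 with it). The list had a median difference of 0.12, against 0.08 over all tested genes, with 21 of 37 means higher in TSA, where 58.1% of all tested genes were.

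Other ligand and fringe genes were higher in TSA on all slides without passing. Jag2, the second Jagged ligand, gave 0.80 ± 0.23 (adjusted p = 0.208) with no overlap between groups, unlike Jag1, which was lower. Mfng, a second fringe gene, gave 0.83 ± 0.30 (adjusted p = 0.334), and Neurl1b, for a ubiquitin ligase that helps ligands signal, gave 0.74 ± 0.24 (adjusted p = 0.272), neither with overlap between groups. Hes7, the Hes gene of the segmentation clock, gave 1.76 ± 0.76 (adjusted p = 0.439, or 0.0596 in the blocked fit), and levels of -3.88, -1.54 and -4.11 on TSA arrays 1, 2 and 3, against -5.10, -4.04 and -5.68 on DMSO arrays 1, 2 and 3. Its highest level was on TSA array 2, as for Dll3 and most other members. Maml1, for a coactivator of the nuclear Notch complex, gave -0.61 ± 0.19 (adjusted p = 0.259) with no overlap, and Rbpj itself gave -0.02 ± 0.19 (adjusted p = 0.977). The target-family gene Hey2 was well above background on 2 of 3 TSA arrays and 1 of 3 DMSO arrays, and Dll4 and Heyl on none of the 6.

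**Figure D4:**
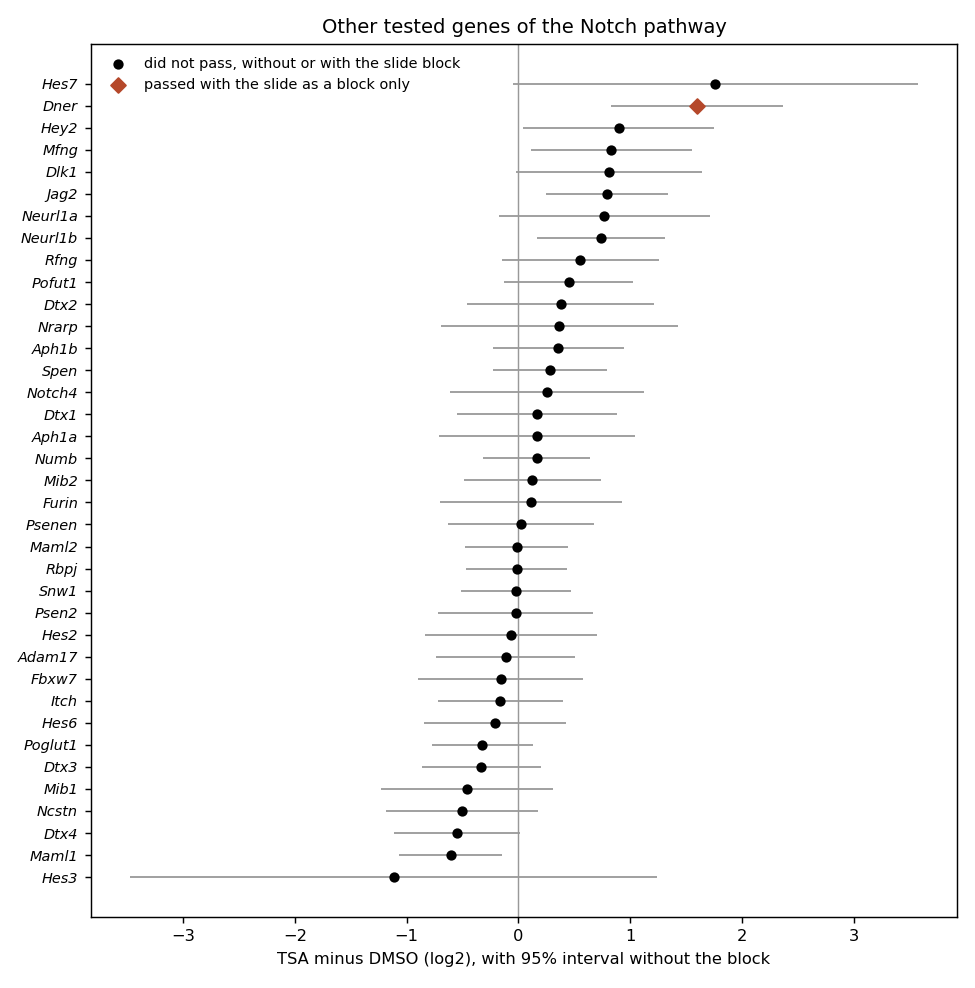
Each point is the TSA minus DMSO difference of a gene on the log2 scale, with its 95% interval from limma without the block (3 arrays per treatment), sorted by size. Dner, at 1.60, is the single gene marked as passing in the blocked fit, and the list runs from Hes3 at -1.12 to Hes7 at 1.76. The Hes3 probe was well above background on 1 of 3 TSA arrays and 3 of 3 DMSO arrays, so its TSA mean rests partly on levels not well above background.

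Genes of the tissues in which Delta and Hes genes act were set beside the members. Of 16 segmentation clock and somite boundary genes, 13 were tested and 12 had a higher mean in TSA, where 58.1% of all tested genes did. The median was 0.55, against 0.08 over all. Without the block 0 passed (1.41% of all tested genes), and 4 had an unadjusted p under 0.05 (limma), where 14.9% of genes had that. With the block 2 passed, where 3.34% of genes did. These 2 were Msgn1 (3.87 ± 1.10, adjusted p = 0.203, or 0.0311 in the blocked fit) and Tbx6 (3.03 ± 1.21, adjusted p = 0.391, or 0.0363 in the blocked fit), presomitic mesoderm transcription factor genes, and Tbx6 is known in mice to act upstream of Dll1. The Msgn1 probe was well above background on 3 of 3 TSA arrays and 2 of 3 DMSO arrays, so its DMSO mean rests partly on a level not well above background. Dll1 itself gave 0.36 in the same arrays. Mesp2, a target of Notch signalling at the somite boundary, gave 0.80 ± 0.40 (adjusted p = 0.516). All 10 paraxial mesoderm markers were tested and had a higher mean in TSA, where 58.1% of all tested genes did. Of these markers 0 passed without the block (3 at an unadjusted p under 0.05, limma, where 14.9% of genes were). In the blocked fit 4 of them passed, where 3.34% of genes did. The summed linear level of the paraxial markers was 14.2 to 51.3 in TSA, against 4.09 to 14.7 in DMSO. It was highest on slide 2 in both treatments, as for most members. That sum rests mostly on T and Tcf15, and on TSA array 2 also on Tbx6, whose level there was 4.43. No marker of this list was missing from the tested genes, and the part of these cells in the levels of Dll3, Hes7 and Lfng was not tested.

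On the neural side, 9 of 12 proneural and neurogenic transcription factor genes were tested, and 0 passed without or with the block. At an unadjusted limma p under 0.05 there were 2 without and 3 with it, where 14.9% and 22.9% of all tested genes had that. The median was -0.60, against 0.08 over all, or -0.10 without slide 2, against -0.0031 over all. Neurog2, a proneural factor, gave 1.02 ± 0.19 (adjusted p = 0.0715), with no overlap between groups, from a probe well above background on 2 of 3 TSA arrays and 1 of 3 DMSO arrays. Of 10 neural progenitor markers 7 were tested, and all but 1, Sox1, were lower on average in TSA, where 58.1% of all tested genes were higher. The median was -0.43, with 0 calls in either fit. At an unadjusted limma p under 0.05 there was 1 in both fits, where 14.9% of genes were without the block and 22.9% with it. Pax6, the marker with the smallest adjusted p of that list, gave -1.21 ± 0.24 (adjusted p = 0.0816). The summed linear level of this list was 8.49 to 9.40 in TSA, against 10.5 to 12.7 in DMSO, and rests mostly on Nes, the brightest marker. Olig2 was well above background on none of the 6 arrays. Notch2, Notch3 and Jag1 were lower in TSA alongside these markers, while Hes5 was higher, and the part of a shift in cell makeup was not tested.

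Markers of other cells gave no call without the block (limma, 2 neuron, 2 endothelial, 0 endoderm and 2 pluripotent cell markers at an unadjusted p under 0.05, where 14.9% of all tested genes were). Of 9 tested neuron markers 2 passed with the block, where 3.34% of all tested genes did. These were Dcx, lower (limma adjusted p = 0.0425, well above background on 2 of 3 TSA arrays), and Isl1, higher (0.0393, well above background on 2 of 3 DMSO arrays). The summed linear level of the neuron markers was 6.36 to 7.94 in TSA, against 6.38 to 7.77 in DMSO. Of 6 tested endothelial markers 1 passed with the block, Esam (0.0461), while the defining markers Cdh5, Tie1 and Erg were well above background on none of the 6 arrays. The summed level of the 6 was 3.73 to 5.58 in TSA, against 1.78 to 4.38 in DMSO, and rests mostly on Flt1, the brightest of them. Of the 6, 4 had a higher mean in TSA and 2 a lower one, where 58.1% of all tested genes were higher. Lower on every slide were Pecam1 (-0.51 ± 0.25, limma adjusted p = 0.506, well above background on 2 of 3 TSA arrays) and Kdr (-0.28 ± 0.49, adjusted p = 0.825). The groups did not overlap for 2 markers that were higher and for 1, Pecam1, that was lower (16.4% and 8.29% of all tested genes). The 9 tested endoderm markers had 0 calls and a summed level of 1.76 to 19.7 in TSA, against 1.91 to 21.9 in DMSO, with slide 2 highest in both treatments. The 9 tested pluripotent cell markers had 0 calls without or with the block. Their summed level was 22.3 to 31.6 in TSA, against 22.3 to 43.6 in DMSO. Pou5f1, the brightest of them, weighs most in that sum and was lower in TSA on every slide (-0.50 ± 0.54, limma adjusted p = 0.729). Of the 9 markers, 6 had a higher mean in TSA and 3 a lower one, where 58.1% of all tested genes were higher. Their median was 0.38, and 5 were higher on every slide and 1 lower (32.6% and 21.5% of genes).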

How the data were processed

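Processed intensity values were deposited for every array. Per the file headers they are background-subtracted signals of a single array, and the submitters' processing notes name Agilent Feature Extraction 10.7. A log2 table by the authors, of unstated normalization, served as an alternative. Control spots and outlier spots (57 to 84 per array) were left out, and spots of a probe were averaged. Probes were named by matching RefSeq identifiers to the GRCm38.p6 gene table (27479 of 41174 probes). Of all 41174 probes, 28158 were well above background on at least 3 of 6 arrays and were tested with limma 3.58.1 in R 4.3.3 (two-sided, treatment as the only term); among several probes of a gene, the brightest tested one on average stands for it. Python 3.11.15 with pandas 2.3.3 and matplotlib 3.10.9 did the rest. The code was tested on simulated data. Replicate numbers equal slide numbers, and deviations from the group means correlated at 0.484, 0.614 and 0.585 within slides, against -0.568 to 0.0916 between slides. Taking deviations from group means itself pushes the values between slides down when those within slides are positive. The numbers were taken to pair the samples, though a shared slide and a shared experiment cannot be told apart here. The members and lists were chosen with earlier results of these data known. Besides the members, the rule names genes of a list that passed without or with the block and the 4 smallest adjusted p of a list, and not all are reported here. Mesp2, Hes7, Mfng, Rbpj, Hey2, Hes3, Sox1, Pou5f1 and Kdr were chosen after their values were seen. The design annotation follows build mm9, so probe positions are not given, and the promoter windows carry GRCm38.p6 coordinates.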

Additional observations from a re-analysis of the deposited data

How the results depend on the processing

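No member passed under 4 other normalizations (normexp with quantile, quantile, median centring, the authors' table), 2 other filters, an intensity trend, array weights, outlier spots kept, the mean over probes, the slide as a replicate block (0 of 10), or without TSA replicate 2. Leaving out any other single array, or both arrays of slide 2, called 0 of all 28158 probes (4995 at an unadjusted limma p under 0.05 without slide 2), so 0 members there says nothing about stability. With settings chosen after seeing the data, 1 of 10 passed with the block and slide 2 left out (Dll3) and 2 of 10 with the block and array weights (Dll3 and Notch3), fits that called 13.5% and 24.1% of all genes. The count of other pathway genes was 1 with the slide as a replicate block, 1 with array weights, 5 with the block and slide 2 left out and 14 with the block and array weights; leaving out 1 array gave 0. The median over members was 0.88 on slide 2 alone, against 0.30 over all tested genes. With 1 array left out it was 0.0059 to 0.68, against -0.025 to 0.17 over all. Dll1 turned to -0.19 with array weights, -0.031 without slide 2 (with or without the block) and -0.25 on slide 1 alone, and ran from -0.27 to 0.71 with 1 array left out. Hes1 turned to -0.050 with array weights and ran from -0.15 to 0.73. The contrast of slide 2 called 0 to 6 of 10 members with 1 array left out. Without DMSO replicate 2, where 6 were called, limma called 9951 higher and 8070 lower of 28158 probes on a single residual degree of freedom, so such counts say little.
Over all probes the 269 calls (259 higher, 10 lower) became 658 with the slide as a block, 1648 with array weights, 629 without TSA replicate 2, 0 without any other single array (2019 to 3327 probes at an unadjusted limma p under 0.05), 140 with normexp, 140 with median centring, 156 with quantile normalization, 149 in the authors' table and 58 without the filter. Averaging the probes of a gene gave 490 called genes, against 205. The contrast of slide 2 called 0 probes, but 80 with median centring and 93 with the filter on all 6 arrays. The cause of these changes was not tested.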
